A study of Mus musculus with 4 samples.

Results

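The transforming growth factor beta (Tgfb) ligands, their latency protein, receptors, transducer, inhibitor and a target gene were described over the cell types of the postnatal mouse testis. The members were chosen by symbol: Tgfb1, Tgfb2, Tgfb3, Ltbp1, Tgfbr1, Tgfbr2, Tgfbr3, Smad3, Smad7 and Tgfbi, which are 10 of the 31053 genes in the matrices. Testes were collected at postnatal day 14 and dissociated for droplet single-cell RNA sequencing, with 3 pups pooled into each of 4 libraries. By the study's methods, only tissue around the RT was dissected, with the tubules next to it, and a fraction rich in interstitial cells was removed after the first digestion, so the classes do not stand for the whole testis. The control libraries (n = 2) carry the label SF1Cre and the Sox17-cKO libraries (n = 2) the label SF1Cre:Sox17flox/flox, so that by the labels both groups carry the Cre and only the second the floxed alleles. The study's methods instead describe controls with the floxed alleles and no Cre, and the difference was not resolved here. SF1-Cre acts in the somatic cells of the gonad and not in the rete testis (RT) alone. The question addressed was which cells make Tgfb transcripts, which cells hold receptor transcripts, and whether the levels in RT cells changed with loss of Sox17.

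Tgfb ligands are secreted in a latent complex that latent Tgfb binding proteins such as Ltbp1 tether to the matrix. The active ligand binds the type II receptor Tgfbr2, which recruits and phosphorylates the type I receptor Tgfbr1; the co-receptor Tgfbr3 (betaglycan) presents ligand, Tgfb2 in particular. The receptors phosphorylate Smad2 and Smad3, which enter the nucleus with Smad4, while Smad7 is an induced inhibitor. The RT is the epithelial network that collects sperm from the tubules, and the Sertoli valve (SV) is the tubule end that adjoins it, lined by modified Sertoli cells.

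The 4 libraries gave 22567 cells with 1000 to 4500 detected genes, at 33649565 to 42011650 UMIs (unique molecular identifiers, 1 per captured transcript) per library. Clusters were named from marker genes, and 13 classes entered the tests. The RT-like class held 228 cells, with 36 and 74 in the control and 33 and 85 in the Sox17-cKO libraries, and 241710 to 662171 UMIs per library. All 6 RT markers were detected in it in every library: Pax8, a transcription factor of the RT epithelium, stood at 310 and 425 CPM (UMIs of the gene scaled to an equal UMI total for each class and library) in control 1 and 2 and at 215 and 420 CPM in Sox17-cKO 1 and 2, the order used throughout, while Krt19 stood at only 3.78, 3.44, 4.14 and 10.6 CPM. The SV Sertoli-like class held 228 cells and the remaining Sertoli-like class 5105. Sox17 itself, the deleted transcription factor, was at 356 and 310 CPM in the control and 45.5 and 34.7 CPM in the Sox17-cKO RT-like cells, a log2 fold change of -3.14 ± 0.34 (SE; adjusted p = 0.0151, edgeR quasi-likelihood test), so the mutant libraries matched their label. Among the other 12 classes Sox17 exceeded 3.32 CPM in the endothelial-like cells alone, at 508 and 344 CPM in the control and 102 and 101 CPM in the Sox17-cKO libraries, a log2 fold change of -2.03 ± 0.43 (SE; adjusted p = 0.476 from edgeR fitted across all genes). In bulk sums of a class, fewer transcript-bearing cells and fewer transcripts per cell cannot be told apart.

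Levels were compared between classes within a gene, not between genes, and an order of classes is over the 13 tested. A class difference was called where it passed an adjusted p of 0.05 with both scalings of the library sizes, TMM and RLE. On simulated sums TMM alone had made false calls between RT-like and Sertoli-like cells. Classes came from the same cells, but the members were left out of the genes used for clustering. Library was a block in these fits, so a shift shared by all classes of a library was taken out. The p-values measure the spread left among the class sums after that, and not the full spread between libraries. Class sums of the same library entered as separate observations, so a very small p-value does not stand for many independent libraries.

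Tgfb2 was highest in the RT-like cells. It stood at 2001, 2353, 803 and 1714 CPM there, and Sox17-cKO 1 was the lowest of the 4. The next class, the pericyte-like cells, held 343, 394, 381 and 471 CPM, and no library of it reached any RT-like library. RT-like cells were higher by 1.72 ± 0.22 on the log2 scale (SE; adjusted p = 5.72e-09), and they were higher than each of the other 12 classes by the same test, in comparisons that called 25.7% to 62.6% of all genes. SV Sertoli-like cells followed at 230, 176, 79.9 and 162 CPM and did not differ from the Lum stroma-like cells, which averaged 147 ± 30.1 CPM (SD, n = 4 libraries). In the Sertoli-like cells of the tubule Tgfb2 stood at 1.90, 6.53, 0.858 and 5.40 CPM. RT-like cells exceeded those by 8.77 ± 0.30 (log2; adjusted p = 1.01e-29), and SV Sertoli-like cells by 5.52 ± 0.31 (adjusted p = 5.59e-20).

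Most single RT-like cells held the transcript. A Tgfb2 UMI was present in 36 of 36, 71 of 74, 27 of 33 and 77 of 85 RT-like cells, 92.5% in all (95% exact binomial interval 88.3 to 95.6, counting error only) at a median of 7738.5 UMIs per cell. Of the spermatocyte-like cells, 1.52% held one at a median of 7096 UMIs, and whether those UMIs were free RNA was not tested. With each cell thinned to 2000 UMIs, the shares of RT-like cells were 85.7%, 91.7%, 73.3% and 79.5%, with 8 shallower cells left out. The groups did not overlap, but the exact permutation test gave p = 0.333, the smallest that 2 against 2 libraries allow.

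Tgfb1 had other sources. Macrophage-like cells held 135, 179, 94.4 and 169 CPM and were higher than each of the other 12 classes (24.3% to 62.0% of all genes called). Endothelial-like cells came second at 0, 105, 81.6 and 95.4 CPM, where the 0 comes from a library with 8 such cells. RT-like cells held 4 Tgfb1 UMIs over all 4 libraries.

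Tgfb3 peaked in the pericyte-like cells, at 128, 157, 160 and 99.9 CPM, above each of the other 12 classes. SV Sertoli-like cells held 117, 56.5, 89.5 and 99.7 CPM and exceeded the other Sertoli-like cells by 1.64 ± 0.21 (log2; adjusted p = 2.13e-08). RT-like cells stood at 22.7, 82.6, 49.6 and 55.9 CPM, a wide spread, and were lower than SV Sertoli-like cells by a log2 difference of -0.82 ± 0.25 (adjusted p = 0.00889).

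**Figure D1:**
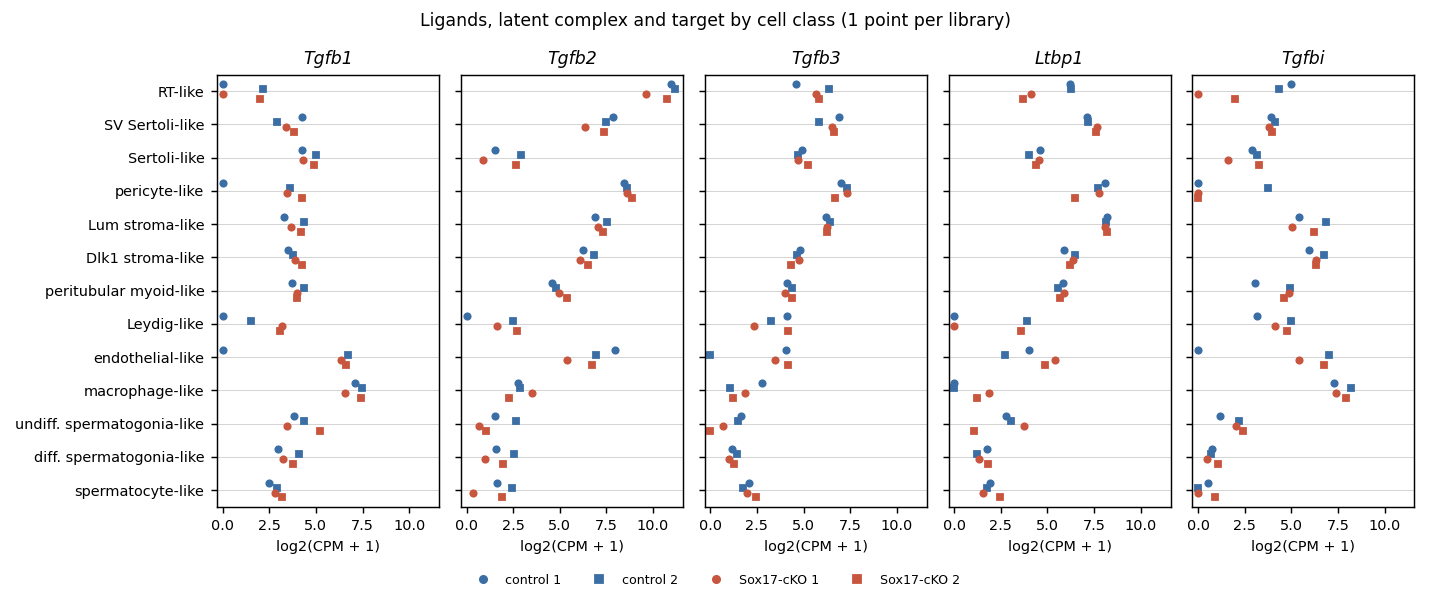
Levels of the 3 ligands, Ltbp1 and Tgfbi on the x axis, as log2(CPM + 1), in the 13 tested classes on the y axis, with 1 point per library (blue control, red Sox17-cKO; circles replicate 1, squares replicate 2). All 4 RT-like points of Tgfb2 lie to the right of those of every other class, whereas the macrophage-like points of Tgfb1 overlap those of the endothelial-like cells.

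Ltbp1, which anchors the latent ligand, was highest in the Lum stroma-like cells at 295, 278, 266 and 293 CPM. SV Sertoli-like cells held 140, 143, 198 and 192 CPM and exceeded the other Sertoli-like cells by 3.01 ± 0.26 (log2; adjusted p = 3.75e-13). In RT-like cells the 2 genotypes stood apart, at 71.9 and 75.7 CPM in the control and 16.5 and 12.1 CPM in the Sox17-cKO libraries.

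Of the 13 tested classes, 2 led for Tgfbr2, the type II receptor. It stood at 338, 183, 173 and 180 CPM in endothelial-like and 135, 137, 115 and 95.5 CPM in macrophage-like cells, which did not differ by the test. The mesothelial-like class, left out of the tests for its 17 cells, held 521, 153, 151 and 182 CPM on 28 UMIs in all. The stromal, pericyte-like and peritubular myoid-like classes averaged 17.7 to 35.6 CPM. The RT-like cells held 3 Tgfbr2 UMIs in 228 cells, the SV Sertoli-like cells 4 UMIs in 228 cells, and the Sertoli-like cells 14 UMIs in 5105 cells. At this depth no Tgfbr2 difference of RT-like from Sertoli-like cells was detectable (adjusted p = 0.16).

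Tgfbr1, the type I receptor, was spread more widely. It was highest in spermatocyte-like cells at 96.7, 128, 126 and 125 CPM, followed by macrophage-like cells, from which they did not differ. RT-like cells held 45.4, 58.5, 66.2 and 55.9 CPM and exceeded Sertoli-like cells by 1.28 ± 0.17 (log2; adjusted p = 1.62e-08). SV Sertoli-like cells stood at 41.4, 46.5, 38.4 and 44.3 CPM, above the other Sertoli-like cells by 0.97 ± 0.19 (adjusted p = 9.67e-05), and the difference between RT-like and SV Sertoli-like cells did not pass the threshold (adjusted p = 0.342).

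The co-receptor Tgfbr3 was highest in Dlk1 stroma-like cells at 218, 253, 148 and 268 CPM, without a called difference from the peritubular myoid-like and Leydig-like cells. RT-like cells held 41.6, 41.3, 53.8 and 48.3 CPM. They exceeded SV Sertoli-like cells, with 7 UMIs in all, by 3.21 ± 0.54 (log2; adjusted p = 3.80e-06), and Sertoli-like cells by 4.93 ± 0.37 (adjusted p = 2.18e-16).

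**Figure D2:**
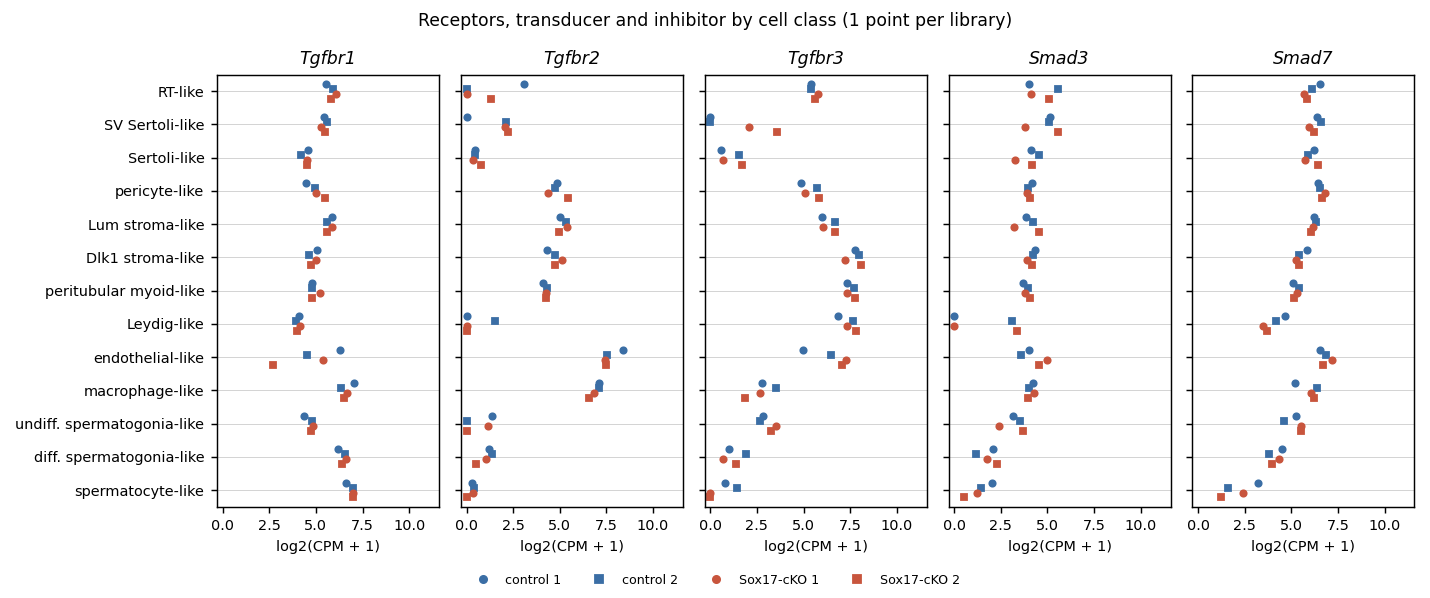
Levels of the 3 receptors, Smad3 and Smad7 on the x axis, as log2(CPM + 1), in the 13 tested classes on the y axis, with 1 point per library (blue control, red Sox17-cKO; circles replicate 1, squares replicate 2). Tgfbr2 is highest in the endothelial-like and macrophage-like cells, and Tgfbr1 is above 0 in every class and library.

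The signal transducer Smad3 averaged 31.7 ± 13.9 CPM (SD, n = 4 libraries) in SV Sertoli-like and 27.8 ± 14.9 CPM in RT-like cells, which did not differ. It was higher in RT-like than in Sertoli-like cells by a small difference, 0.76 ± 0.29 on the log2 scale (adjusted p = 0.0269), and the call was lost in each of the 4 fits without 1 library (log2 0.30 to 0.65). Smad7, the inhibitor, averaged 66.3 ± 18.2 CPM in RT-like and 66.6 ± 14.6 CPM in Sertoli-like cells. Tgfbi, a matrix protein induced by Tgfb, was highest in macrophage-like cells at 153, 293, 165 and 245 CPM and reached 30.3, 18.9, 0 and 3.02 CPM in RT-like cells.

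Counted together, 7 of the 10 members differed between RT-like and Sertoli-like cells, where 46.9% of all genes tested were called, and 6 of them were higher in the RT-like cells, against 26.7% of all genes. Of these, the Ltbp1 call (log2 0.95 ± 0.35; adjusted p = 0.0199) was lost without control 1 (log2 0.54; adjusted p = 0.3) and without control 2 (log2 -0.055; adjusted p = 0.938). Sertoli-like cells held 23.3, 15.2, 22.7 and 19.9 CPM of Ltbp1, so that RT-like cells lay above them in both control libraries and below them in both Sox17-cKO libraries. The call of Tgfb3 was lost without control 2 (log2 0.17; adjusted p = 0.634). Between SV Sertoli-like and other Sertoli-like cells 6 members differed against 20.2% of all genes, and 5 of them were higher against 10.7%. The Tgfb1 call there was lost without either Sox17-cKO library (adjusted p = 0.0949 and 0.229), that of Tgfbr1 without control 2 (0.0523), and that of Smad3 without control 1 (0.142) or Sox17-cKO 2 (0.244). Other settings also ended these calls: no integration for Tgfbr1 (log2 0.50; adjusted p = 0.0876) and Smad3 (0.0631), resolution 0.8 for Smad3 (0.0524), and keeping cells below 10% mitochondrial UMIs (0.178) or DESeq2 (0.0543) for Tgfb1. Between RT-like and SV Sertoli-like cells 5 members differed against 32.4% of all genes, with Tgfb2 and Tgfbr3 higher and Tgfb1, Tgfb3 and Ltbp1 lower in the RT-like cells. With the control libraries alone, where 29.5% of all genes were called, the RT-like against Sertoli-like calls of Tgfb2, Tgfbr1, Tgfbr3, Ltbp1 and Tgfb1 stood, and those of Tgfb3 and Smad3 did not. In the same libraries 3 members were higher and 0 lower in SV Sertoli-like than in other Sertoli-like cells, against 7.46% of all genes called; the calls of Tgfb1 (adjusted p = 0.507), Tgfbr1 (0.0582) and Smad3 (0.439) were lost. Against SV Sertoli-like cells, RT-like cells then had 2 members higher and 1 lower, against 15.2% of all genes, and Tgfb1 (adjusted p = 0.0695) and Tgfb3 (0.199) were lost.

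In RT-like cells no member passed the threshold between the genotypes in the planned fit, which has no replicate block. With the replicate number as a block, Ltbp1 (log2 -2.48; adjusted p = 0.00119) and Tgfb2 (log2 -0.90; adjusted p = 0.013) both passed, and 174 genes were called in place of 9. Of 6799 genes tested, 9 were called, 1 higher and 8 lower, which is 0.132%, and 389 had an unadjusted p under 0.05. DESeq2 called 8 higher and 12 lower, and library sizes without TMM gave 4 higher and 8 lower. Tgfb1, Tgfbr2 and Tgfbi were too low in these cells to be tested, which leaves 7 members with a test.

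Ltbp1 had the largest difference of the 7. Its 19 and 44 UMIs in the control against 4 and 8 in the Sox17-cKO libraries gave a log2 fold change of -2.47 ± 0.43 (SE; adjusted p = 0.102 from edgeR fitted across all genes). Without Sox17-cKO 1 it passed the threshold, at -2.63 (adjusted p = 0.00268), and without the filter for lowly counted genes it passed at -2.48 (adjusted p = 0.00069). It was smaller in cells chosen by a marker gate in place of clusters (3 or more RT markers detected and at least 1000 genes), at -1.14 ± 0.44 (adjusted p = 1). That gate held 491 cells, of which 121 were in the RT-like class and 355 had over 4500 detected genes; Sox17 stood at -3.18 in it. Replicates 1 were made with Cell Ranger 6.0.2 and replicates 2 with 6.1.2, and Ltbp1 and Tgfb2 were both lower in the Sox17-cKO library within each version. Each version holds 1 library per genotype, and any part of the version was not tested. The share of RT-like cells with an Ltbp1 UMI was 33.3% and 36.5% in the control and 12.1% and 8.24% in the Sox17-cKO libraries, against 1.99% of all spermatocyte-like cells. Markers of stroma, where Ltbp1 is high, summed to 189 and 172 CPM in control and 269 and 343 CPM in Sox17-cKO RT-like cells, with 6, 7, 4 and 6 of 8 markers detected. Other lists whose sums did not overlap between the genotypes were Sertoli (1172 and 919 CPM in control, 1357 and 1293 CPM in Sox17-cKO), endothelial (503 and 465 against 385 and 282 CPM, in control 2 from Kdr alone), efferent duct (0 and 3.44 against 57.9 and 30.2 CPM, in both Sox17-cKO libraries from Aqp1 alone), mesothelial (22.7 and 18.9 against 33.1 and 25.7 CPM) and pericyte (11.3 and 6.88 against 20.7 and 13.6 CPM). The sums of the RT, SV Sertoli, germ cell, peritubular myoid, Leydig, macrophage, T cell and erythroid lists overlapped between the genotypes. An exact permutation test of 2 against 2 libraries can give no p below 0.333, so a separation of sums carries little weight. These sums stand beside the Tgfb2 values as well, and their part in either result was not tested.

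Tgfb2 was lower in both Sox17-cKO libraries, with a log2 fold change of -0.83 ± 0.38 (SE; adjusted p = 0.905 from edgeR fitted across all genes). With the replicate number as a block, an alternative to the planned fit, it was -0.90 (adjusted p = 0.013, edgeR). Without the block the value depended on single libraries, from -0.38 without Sox17-cKO 1 to -1.47 without Sox17-cKO 2. Among the others, Smad7 had a log2 fold change of -0.59 ± 0.35 and Smad3 of -0.35 ± 0.56. Tgfb3 had -0.15 ± 0.50, Tgfbr1 0.13 ± 0.36 and Tgfbr3 0.24 ± 0.37, and each of these 5 had an adjusted p of 0.998. With 1 library left out, Smad7 ranged from -0.80 to -0.38 and Smad3 from -1.04 to -0.09. Tgfb3 ranged from -0.64 to 1.19, Tgfbr1 from 0.03 to 0.37 and Tgfbr3 from 0.19 to 0.35. The errors of these 5 are wide, so the values do not show that the levels were alike.

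**Figure D3:**
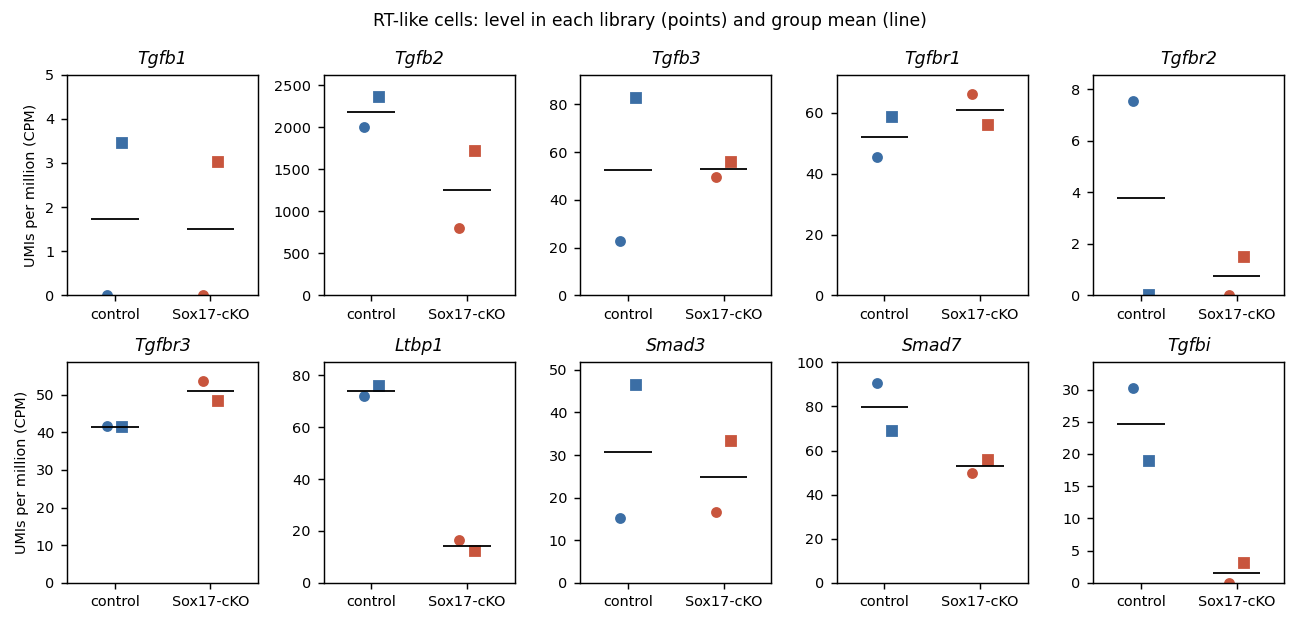
Level of each member in RT-like cells, in CPM on a linear y axis that starts at 0, with 1 point per library (circles replicate 1, squares replicate 2) and a line at each group mean (n = 2 libraries). The Ltbp1 control points lie at 71.9 and 75.7 CPM and the Sox17-cKO points at 16.5 and 12.1 CPM, while the groups overlap for Tgfb3, Tgfbr1 and Smad3.

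The genotype change of RT-like cells was then set against that of each other class, with library as a block. These comparisons share the same RT-like sums and are not independent of each other. Ltbp1 passed in 5 of the 12 comparisons and Tgfb2 in 2 of 12. For Ltbp1 the change in RT-like cells was lower by a log2 difference of -2.58 ± 0.51 than in Sertoli-like cells (adjusted p = 0.000287, edgeR), where 0.536% of genes were called. It was lower by -2.86 ± 0.51 than in SV Sertoli-like cells (adjusted p = 2.4e-05; 0.608% of genes called). Against Lum stroma-like, Dlk1 stroma-like and peritubular myoid-like cells the differences were -2.46 ± 0.44, -2.41 ± 0.46 and -2.51 ± 0.46, each past the threshold, with 1.33%, 0.724% and 1.12% of genes called. In the 7 comparisons that did not pass, with endothelial-like, macrophage-like, pericyte-like, Leydig-like and the 3 germ cell classes, the Ltbp1 differences ran from -5.63 to -1.54, with adjusted p from 0.146 to 1. Some of these classes held few Ltbp1 UMIs: 0, 0, 1 and 1 in macrophage-like, 1, 1, 4 and 5 in endothelial-like and 0, 15, 0 and 12 in Leydig-like cells. Pericyte-like cells held 77, 173, 111 and 34. Without Sox17-cKO 2 all but the last of these calls were lost, with an adjusted p of 0.162, 0.102, 0.181, 0.125 and 0.0399 for the 5 classes in the order given, with log2 differences of -2.08 to -2.61. Without control 2 the call against Sertoli-like cells was also lost (adjusted p = 0.117), and DESeq2 called only the difference from Lum stroma-like cells (adjusted p = 0.0455).

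For Tgfb2 the change in RT-like cells was lower than in peritubular myoid-like cells by -1.27 ± 0.25 (log2; adjusted p = 0.000226) and than in Lum stroma-like cells by -0.81 ± 0.22 (adjusted p = 0.0224). The second was lost with RLE scaling (adjusted p = 0.0643), without control 1 (log2 -0.59), without Sox17-cKO 1 (-0.45) and with DESeq2 (-0.82). The first was lost without control 2 (log2 -1.29), without Sox17-cKO 1 (-1.04) and with DESeq2 (-1.30, adjusted p = 0.111), where its size changed less. Between RT-like and SV Sertoli-like cells the difference was -0.02 ± 0.42, and Tgfb2 had a log2 fold change of -0.76 ± 0.37 in the latter as well (adjusted p = 1). With 1 library left out, the fold change in SV Sertoli-like cells ranged from -1.42 to -0.37.

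In each of the other 12 classes edgeR without a replicate block called 0 genes between the genotypes, with 10 to 99 genes at an unadjusted p under 0.05. From 4 to 10 members were tested in each class. With the block some genes were called in Sertoli-like and SV Sertoli-like cells, as given in the last section.

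**Figure D4:**
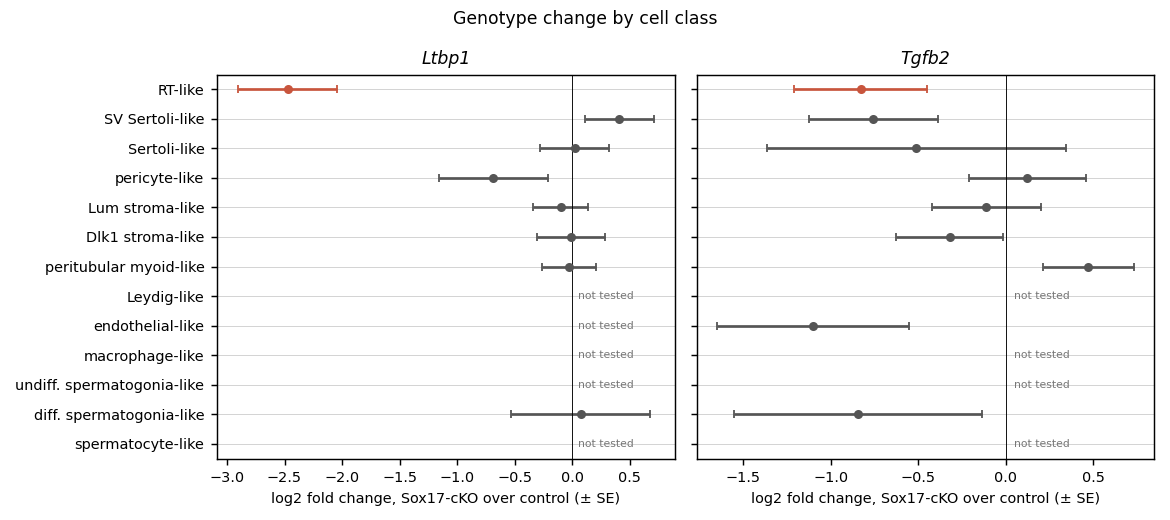
Log2 fold change of Sox17-cKO over control (x axis, with SE as error bars) for Ltbp1 and Tgfb2 in the 13 classes (y axis). Each is fitted on 2 control and 2 Sox17-cKO libraries. A class in which the gene was too low for this test is marked as not tested. Ltbp1 in RT-like cells, in red, lies at -2.47, apart from the other classes tested, whereas Tgfb2 also lies below 0 in SV Sertoli-like, endothelial-like and other classes.

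The 250 bases before the start of Tgfb2 and before both starts of Ltbp1, from RefSeq on GRCm38.p6, are shown. They were chosen because the genotype change of both genes in RT-like cells differed from that in more than 1 other class. Each of those calls was lost in at least 1 of the other fits given above. The groups also did not overlap in RT-like cells for Tgfbi, lower in Sox17-cKO, whose sequence is not shown. Nor did they for Smad7, lower, and Tgfbr3, higher in Sox17-cKO, which had no promoter window. The share of all genes without overlap was not counted, so this list is not a result about these members. An exact permutation test of 2 against 2 libraries can give no p below 0.333, so such a separation carries little weight. Capitals mark ACAAT or its reverse ATTGT, the core that SOX proteins recognise, which 27.7% of all 32851 promoter windows of this length hold on either strand.
Tgfb2, chr1:186705990-186706239, minus strand: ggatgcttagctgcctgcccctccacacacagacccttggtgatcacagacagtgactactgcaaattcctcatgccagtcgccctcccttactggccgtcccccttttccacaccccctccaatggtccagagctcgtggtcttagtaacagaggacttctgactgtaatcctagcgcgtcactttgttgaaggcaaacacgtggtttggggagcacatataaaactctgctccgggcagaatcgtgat
Ltbp1 upstream start, chr17:75005279-75005528, plus strand: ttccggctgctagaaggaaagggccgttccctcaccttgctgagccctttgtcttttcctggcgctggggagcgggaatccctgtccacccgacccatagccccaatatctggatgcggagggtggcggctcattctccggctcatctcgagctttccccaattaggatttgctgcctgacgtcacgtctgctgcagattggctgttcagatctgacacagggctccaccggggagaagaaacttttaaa
Ltbp1 downstream start, chr17:75178531-75178780, plus strand: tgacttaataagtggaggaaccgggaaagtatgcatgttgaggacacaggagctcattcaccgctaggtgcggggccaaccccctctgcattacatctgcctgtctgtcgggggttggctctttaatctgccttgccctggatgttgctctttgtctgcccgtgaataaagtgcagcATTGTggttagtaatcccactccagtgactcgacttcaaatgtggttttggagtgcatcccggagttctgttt
Of the 3 windows, the one at the downstream Ltbp1 start held 1 match, starting 73 bases before the start, and the other two held none, nor did that of Tgfbi. Smad7 and Tgfbr3 had no window in the promoter set and were not searched. A match is a description of the letters and not of binding.

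Tgfb2 lies on chromosome 1 (186622792 to 186705989, minus strand) and Ltbp1 on chromosome 17 (75005568 to 75392512, plus strand) in GENCODE on GRCm38; both are protein coding. The other ligands, Tgfb1 and Tgfb3, lie on chromosomes 7 and 12.

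The 51 other genes of the pathway, listed by role, were counted in the same comparisons. Of the 48 tested, 19 were higher and 9 lower in RT-like than in Sertoli-like cells, where 26.7% of all genes were called higher and 20.2% lower; the counts by role are to be read against the same shares. Among the latency and matrix genes 4 of 10 were higher and 0 lower, with the fibrillin gene Fbn1 at 3.44 ± 0.34 and Ltbp3 at 3.36 ± 0.23 (log2). Of the activation genes 3 were higher and 3 lower of 8 tested. The integrin gene Itgav of this list was higher by 1.30 ± 0.20. Among transducers and inhibitors 6 were higher and 5 lower of 13, with the inhibitory Smad6 higher by 4.57 ± 0.54. Of the targets 4 were higher and 1 lower of 13: Junb was higher by 3.43 ± 0.26 and the cell cycle inhibitor Cdkn2b lower, at -3.89 ± 0.39.

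Between SV Sertoli-like and other Sertoli-like cells 13 pathway genes were higher and 4 lower of 48 tested, where 10.7% of all genes were called higher and 9.46% lower. Ltbp2 and Ltbp3 were higher by 3.15 ± 0.67 and 2.18 ± 0.29, and the matrix-linked target Ctgf by 3.64 ± 0.45 (log2). Between the genotypes in RT-like cells 0 of 29 pathway genes tested passed the threshold. The lowest p among them was that of the pseudoreceptor Bambi, at -1.23 ± 0.33 (adjusted p = 0.366).

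Across the 13 classes, the genes whose mean log2(CPM + 1) followed that of Tgfb2 most closely were Farp1 (Pearson r = 0.948), Nr2f1 (0.935) and Vldlr (0.895), among 11390 genes compared. For Tgfb1 they were Rps29, Mrc1 and Gm26778 (0.910, 0.871 and 0.828), and for Tgfb3 Zhx2, Rnd3 and Shisa4 (0.924, 0.919 and 0.913). For Tgfbr1 they were Rnf19b, Vrk2 and Acer3 (0.896, 0.874 and 0.862), for Tgfbr2 Ggta1, Elk3 and Emp1 (0.970, 0.959 and 0.942) and for Tgfbr3 Ksr1, Boc and Fbxl7 (0.958, 0.954 and 0.953). These are descriptions over 13 classes that share the same 4 libraries.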

How the data were processed

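Dissociated testis cells were sequenced in 4 droplet libraries. The authors aligned reads with Cell Ranger to mm10 (GRCm38), per the labels and file headers, and deposited a matrix of UMI counts per gene and barcode for each library; pooled tables of the series were not used. Cells with 1000 to 4500 detected genes were kept. The mitochondrial limit of 1% in the study's methods was not applied, since it leaves 12 to 145 cells per library. Cells were integrated and clustered with Seurat 5.3.0 (2000 variable genes, 20 principal components, resolution 0.4), leaving 62 genes (the members, 51 pathway genes and Sox17) out of the variable genes. The SV Sertoli-like class was taken from resolution 0.8 after no separate cluster appeared at 0.4. Scrublet called 0 and 208 doublets in the control and 0 and 330 in the Sox17-cKO libraries; its calls of 0 count as not having worked, and removal is an alternative. Pairs of libraries shared 20 to 43 barcodes, 7 to 9 of them among the kept cells, whose log counts correlated at 0.705 or below.

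UMI counts were summed per class and library and tested with edgeR 4.0.16 (quasi-likelihood, filterByExpr, TMM, Benjamini-Hochberg over all genes, two-sided, threshold 0.05); SE is the log2 fold change divided by the root of F. Each test was checked on simulated counts. On these, the planned TMM scaling shifted the comparison of RT-like with Sertoli-like cells and made false calls. RLE scaling was therefore added after the data were seen, and a class difference was called only where both passed. Whether unequal depth underlies the shift was not tested. In the data themselves the median shift of TMM from RLE between these classes was -0.09 on the log2 scale, and the calls fell from 6401 to 6027. The median shift reached -0.45 between endothelial-like and spermatocyte-like cells. Genotype and difference tests kept TMM. DESeq2 1.42.0 was an alternative. Intervals on shares are 95% exact binomial.

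All 10 members are named, and other pathway genes by size among those past the threshold; likeness used genes of at least 20 CPM in some class. Of 31053 gene identifiers, 99.6% were found in GENCODE vM21. The members and lists were chosen with earlier results of these data known.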

Additional observations from a re-analysis of the deposited data

Results flagged for a closer look

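The genotype change in RT-like cells differed from that of another class, by the test of the difference itself, in 8 comparisons of a member. For Ltbp1 the log2 difference was -2.58 from Sertoli-like, -2.86 from SV Sertoli-like, -2.46 from Lum stroma-like, -2.41 from Dlk1 stroma-like and -2.51 from peritubular myoid-like cells. For Tgfb2 it was -0.81 from Lum stroma-like and -1.27 from peritubular myoid-like cells. For Tgfbi it was -3.57 from peritubular myoid-like cells (adjusted p = 0.0098, edgeR), on 8 and 11 UMIs in control and 0 and 2 UMIs in Sox17-cKO RT-like cells. Tgfbi was too low in RT-like cells to be tested there and entered this comparison through the 15, 178, 38 and 142 UMIs of the peritubular myoid-like cells, so the value is given as a description and nothing rests on it. The Tgfbi call was lost without control 1 (log2 -2.82), without Sox17-cKO 1 (-2.98) and without Sox17-cKO 2 (-8.33). Without control 2 the difference was -5.49. All 8 rest on the same RT-like sums, and each call was lost in at least 1 fit that left out a library or used DESeq2. Groups of 2 libraries were too small to look for a library that stands apart.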

How the results depend on the processing

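Against the 9 genes reported for the genotype in RT-like cells, a mitochondrial limit of 10% gave 16, no integration 4 and the marker gate 4; DESeq2 gave 20 and no filter on low counts 99. Leaving out 1 library gave 8 to 74 there, with 74 without Sox17-cKO 1 and 32 without control 2, 0 to 8 in SV Sertoli-like cells (0 as reported; 2 with no filter on low counts) and 0 in Sertoli-like cells. In those fits the lone library is assumed to vary like the others. For the difference of the genotype change between RT-like and Sertoli-like cells the count of 67 became 36 with the mitochondrial limit and 14 with DESeq2, and 35 to 65 with 1 library left out. The 2 control libraries alone, a choice made after seeing the data, gave 4264 genes for RT-like against Sertoli-like cells (6401 with TMM in all libraries) and 986 for SV Sertoli-like against other Sertoli-like cells (2704). Same-numbered libraries of the 2 genotypes deviated together (r = 0.357 in RT-like cells, 0.153 to 0.678 over the classes), and they also share a Cell Ranger version, so the block stands for the number and that version together. They were also alike in median mitochondrial share (8.83% and 7.16% in replicates 1, 5.77% and 5.45% in replicates 2) and in Dlk1 stroma-like cells (151 and 124 against 686 and 649); the labels do not say whether they were prepared together. With the replicate block the calls rose to 174 in RT-like, 34 in Sertoli-like and 4 in SV Sertoli-like cells, Ltbp1 in RT-like cells had an adjusted p of 0.00119 (log2 -2.48) and Tgfb2 of 0.013 (log2 -0.90). Tgfb3 in RT-like cells turned sign between genotypes with the marker gate (log2 0.022), and ranged from -0.64 to 1.19 with 1 library left out. Ltbp1 between RT-like and Sertoli-like cells ranged from -0.055 to 1.28 with 1 library left out; it was not called with no integration (adjusted p = 0.141) or at resolution 0.8 (0.0927). Of 368 further values, for differences that were not called and are not printed, 50 changed sign and 5 came past the threshold. In RT-like, Sertoli-like and SV Sertoli-like cells RLE scaling changed no call of a member between genotypes, and none of RT-like or SV Sertoli-like against Sertoli-like cells. RT-like sums of 241710 to 662171 UMIs limit what could be seen of Tgfb1, Tgfbr2 and Tgfbi. The cause of these changes was not tested.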
